A study of Mus musculus with 6 samples.

Results

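The mitosis and G2/M genes are 36 genes of cyclins, mitotic kinases, chromosome structure, kinetochores, the spindle and cytokinesis. They were chosen by gene symbol, with earlier results of these data known. Each matched 1 of the 47069 rows with an Ensembl gene ID in the deposited tables. The RNA sequencing covered 6 libraries of regulatory T cells of the mouse, which are CD4 T cells that express Foxp3 and restrain immune responses. The libraries labelled cKO came from mice with a Cre recombinase driven by Foxp3 and 2 floxed Noc4l alleles, and the Het libraries from mice with the same Cre and 1 floxed Noc4l allele. Noc4l encodes a protein of the nucleolus, and its yeast counterpart helps to build small ribosomal subunits. Both genotypes carried the Cre, so no library came from cells without it. Cells positive for CD4 and GFP with high CD62L were sorted from lymph nodes and spleen and activated with Dynabeads, magnetic beads for stimulating T cells. There were 2 libraries labelled cKO and 2 Het libraries at 72 h, and 1 of each at 48 h. A first table held labelled cKO 2 and Het 1 at both times, and a second held labelled cKO 4 and Het 3 at 72 h. The 2 tables were deposited separately, with no statement of a common normalisation. Ratios were therefore taken within a pair: pair 2/1 and pair 4/3 at 72 h, and the 48 h pair. Statements that set libraries of both tables side by side use FPKM as deposited and depend on that scale. Nothing states that libraries came from separate mice, so p-values measure only the spread between these libraries. The protocol text of the labels writes the same alleles for both genotypes, so each genotype here is the one in the library's genotype field.

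The targeted gene went against the labels. Noc4l had 81.7 FPKM in labelled cKO 2 against 48.8 in Het 1 at 72 h, and 58.1 in labelled cKO 4 against 40.8 in Het 3. Its 48 h values were 124 FPKM in labelled cKO 2 against 99.1 in Het 1. FPKM is a read density scaled to transcript length and library size. All 3 pairs thus showed more Noc4l with the cKO label, and the 72 h log2 fold change, labelled cKO over Het, was 0.62 ± 0.14 (SE, limma adjusted p = 0.187), from limma models fitted to log2(FPKM + 1) across all genes. Which exons were floxed is not given in the sources used here, so reads outside the deleted part could not be set aside. Every direction below is therefore that of libraries labelled cKO against Het.

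Estimated depth was 16.5 to 28.8 M fragments per library. For members, that gave between 156 fragments for Cdc25c in labelled cKO 4 and 33256 for Top2a in Het 3, with 95% Poisson intervals from 15.1% below to 17.0% above and from 1.07% below to 1.08% above, which cover counting error only. All 9 markers of regulatory and CD4 T cells were at 1 FPKM or more in every library. Of 10 neutrophil markers, 9 were at 1 FPKM or more in labelled cKO 2 at each time and 1 in each other library. Their sum was 363 FPKM in labelled cKO 2 against 38.6 in Het 1 at 72 h, 75.6 in labelled cKO 4 against 21.5 in Het 3, and 418 in labelled cKO 2 against 44.1 in Het 1 at 48 h. In pair 4/3 nearly all of that sum was Ltf, with 75.3 FPKM in labelled cKO 4 against 21.4 in Het 3, and of the other 9 markers 2 were higher and 1 lower in labelled cKO 4. The neutrophil genes S100a8 and S100a9 were listed at 0 in both libraries of pair 4/3. The sum of 8 markers of CD8 T and NK cells was 315 FPKM in labelled cKO 2 against 82.8 in Het 1 at 72 h, 124 in labelled cKO 4 against 14.7 in Het 3, and 44 in labelled cKO 2 against 30 in Het 1 at 48 h. The sum of 8 B cell markers was 270 FPKM in labelled cKO 2 against 162 in Het 1 at 72 h, 496 in labelled cKO 4 against 317 in Het 3, and 236 in labelled cKO 2 against 201 in Het 1 at 48 h. Most of each B cell sum was Ighm, with 182 FPKM in labelled cKO 2 against 148 in Het 1 at 72 h, and 487 in labelled cKO 4 against 307 in Het 3, and in pair 4/3 Cd79b, Pax5 and Ebf1 were lower in labelled cKO 4. The sum of 8 monocyte and macrophage markers was 27.4 FPKM in labelled cKO 2 against 0.933 in Het 1 at 72 h. It was 0.567 in labelled cKO 4 against 0.675 in Het 3. At 48 h it was 40 in labelled cKO 2 against 0.191 in Het 1. Most of it in labelled cKO 2 was Lyz2, with 24.75 FPKM at 72 h and 36.28 at 48 h. For 10 erythroid and platelet markers the sum was 24.9 FPKM in labelled cKO 2 against 27.4 in Het 1 at 72 h. In pair 4/3 that sum was 1.57 in labelled cKO 4 against 6.39 in Het 3. Its 48 h values were 31.7 in labelled cKO 2 against 2.49 in Het 1.

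Mitosis is driven by cyclin-dependent kinase 1 with its A and B cyclins, which build up during G2 and are destroyed when the anaphase promoting complex is switched on. Between these events chromosomes condense, kinetochores attach to spindle microtubules under the watch of a checkpoint, the chromosomal passenger complex corrects faulty attachments, and the midzone directs the final split. Regulatory T cells divide after activation, and most genes of these steps are transcribed late in the cycle, when the repression that the DREAM complex exerts through CHR elements in their promoters has been lifted and the MuvB, B-Myb and FoxM1 activators act there.

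That shared promoter layout was read from RefSeq promoter entries of build GRCm38.p6, 250 bases before to 50 after each transcription start. Members were matched by symbol, because the submitters' processing notes name build mm9 and no coordinate was carried over. Of the 36 members, 30 had an entry, and Ccna2, Cdc25c, Aurkb, Kif20a, Tpx2 and Dlgap5 did not. The genes below, 1 for each step of mitosis and chosen after their values were seen, show the arrangement from 120 bases before to 30 after the start. Each is printed 5′ to 3′ on the strand of the gene. Capitals mark the CHR letters TTTGAA, which appear as TTCAAA where they lie on the other strand. They also mark the NF-Y box letters CCAAT, which appear as ATTGG where they lie on the other strand.
Ccnb2: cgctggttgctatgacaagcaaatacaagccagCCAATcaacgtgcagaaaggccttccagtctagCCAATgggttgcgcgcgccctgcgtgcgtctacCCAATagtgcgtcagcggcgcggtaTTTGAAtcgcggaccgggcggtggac
Top2a: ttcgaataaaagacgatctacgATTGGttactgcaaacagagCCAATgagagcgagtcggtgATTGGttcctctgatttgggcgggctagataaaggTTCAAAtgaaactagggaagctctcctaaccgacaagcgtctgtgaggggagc
Cenpa: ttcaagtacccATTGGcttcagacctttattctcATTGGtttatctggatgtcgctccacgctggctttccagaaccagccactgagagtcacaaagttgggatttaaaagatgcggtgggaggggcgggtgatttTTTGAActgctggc
Kif11: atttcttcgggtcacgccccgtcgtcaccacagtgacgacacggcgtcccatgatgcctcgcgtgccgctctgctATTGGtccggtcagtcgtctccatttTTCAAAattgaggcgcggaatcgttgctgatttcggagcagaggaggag
Cdca8: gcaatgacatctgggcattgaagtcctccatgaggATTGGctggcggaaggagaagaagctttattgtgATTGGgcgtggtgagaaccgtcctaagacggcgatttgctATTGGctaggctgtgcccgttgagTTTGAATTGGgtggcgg
Ube2c: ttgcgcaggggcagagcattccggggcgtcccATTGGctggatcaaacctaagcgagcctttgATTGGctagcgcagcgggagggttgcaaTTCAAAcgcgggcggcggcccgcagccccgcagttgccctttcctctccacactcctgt
Racgap1: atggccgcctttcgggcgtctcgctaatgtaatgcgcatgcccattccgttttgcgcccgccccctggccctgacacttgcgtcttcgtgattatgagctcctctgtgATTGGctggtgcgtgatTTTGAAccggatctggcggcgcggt

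The Ccnb2 window is chr9:70421525-70421674 (- strand), that of Top2a chr11:99024160-99024309 (- strand) and that of Cenpa chr5:30666766-30666915 (+ strand). The Kif11 window is chr19:37376262-37376411 (+ strand) and that of Cdca8 chr4:124936888-124937037 (- strand). The Ube2c window is chr2:164769809-164769958 (+ strand) and that of Racgap1 chr15:99651627-99651776 (- strand). In each of these 7 windows the CHR letters lay nearer to the 3′ end than most of the boxes, and in Cdca8 the 2 motifs shared 1 base. Both strands were searched. TTTGAA was in the promoter entries of 25 of the 30 members (83.3%) and of 5466 of the 27025 genes of the table (20.2%). CCAAT was in 26 members (86.7%), against 41.1% of all genes, and both sets of letters were in 23 members (76.7%), against 9.0%. In the 250 bases before the start alone, TTTGAA was in 12 members (40.0%), against 18.3% of all genes, and both were in 11 members (36.7%), against 7.3%. The second CHR form, TTTAAA, which reads the same on both strands, was in 8 members (26.7%), against 14.9%. No TTTGAA lay in the entries of Birc5, Bub1, Ccnb1, Cenpe and Nusap1. Their median log2 fold change at 72 h was -0.63, against -0.58 for the 25 members with it. Birc5, Ccnb1 and Cenpe held TTTAAA instead, so these genes are not a group without either form. At least 1 of the 2 forms was in 28 members (93.3%), against 30.6% of all genes. A match is a run of letters and not a measured binding site.

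**Figure D1:**
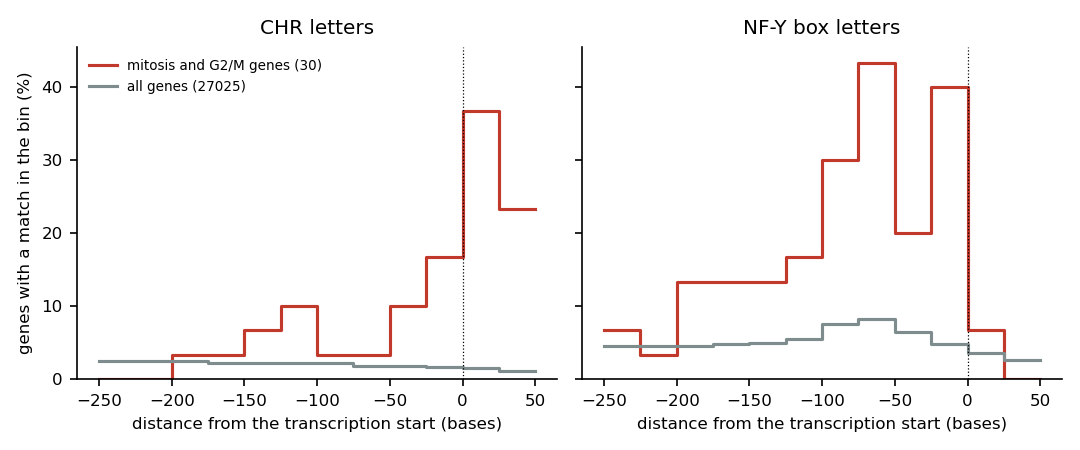
The x axis gives distance from the transcription start in bases and the y axis the percentage of genes with a match in each 25-base bin, for the CHR letters (left) and the NF-Y box letters (right), in the 30 members with a promoter entry (red) and all 27025 genes of the table (grey). Among members, the CHR letters peaked in the 25 bases after the start (36.7% against 1.54%) and the box letters from 75 to 50 bases before it (43.3% against 8.21%).

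At 72 h each of the 36 members was lower in the library labelled cKO in both pairs. Across all 12488 genes tested, 24.6% were lower in both. The geometric mean of the members was 52.5 FPKM in labelled cKO 2 against 88.2 in Het 1, and 55.6 FPKM in labelled cKO 4 against 75.2 in Het 3. The median log2 fold change was -0.57, a fold of 0.675, while the median of all genes was 0.08. Across both tables, on FPKM as deposited, both libraries labelled cKO lay below both Het libraries in 35 members, all but Plk1, against 13.8% of all genes. With limma, 30 members were lower at an unadjusted p under 0.05, against 6.99% of all genes. None passed an adjusted p under 0.05, where 0.0% of all genes passed, and the members' adjusted p ran between 0.141 for Top2a and 0.397 for Aurka. The fit had 1 residual degree of freedom, and without any 1 of the 4 libraries, which also drops the table term, the count at an unadjusted p under 0.05 was 9 without labelled cKO 2 (against 3.65% of all genes), 0 without Het 1 (1.41%), 16 without labelled cKO 4 (8.86%) and 5 without Het 3 (1.51%).

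In bulk RNA, fewer cells in mitosis and less of these transcripts per cell cannot be told apart. The 8 markers of CD8 T and NK cells given above were higher in the library labelled cKO for 8 genes in pair 2/1 and 6 in pair 4/3. The 8 B cell markers were higher there for 8 genes in pair 2/1 and 4 in pair 4/3, and the 10 neutrophil markers for 10 genes in pair 2/1 and 3 in pair 4/3. Their part in the result was not tested. The members' median log2 ratio was -0.71 in pair 2/1 and -0.42 in pair 4/3, and it was more negative in pair 2/1 for 34 of the 36 members, against 54.0% of all genes. A log2 ratio of -0.32 or lower was seen for 34 members in pair 2/1 and for 28 in pair 4/3, against 19.6% and 10.8% of all genes. Across the 36 members the log2 ratios of both pairs, which share no library, had a Pearson r of 0.56 and a Spearman rho of 0.51, given as a description over genes that are not independent.

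**Figure D2:**
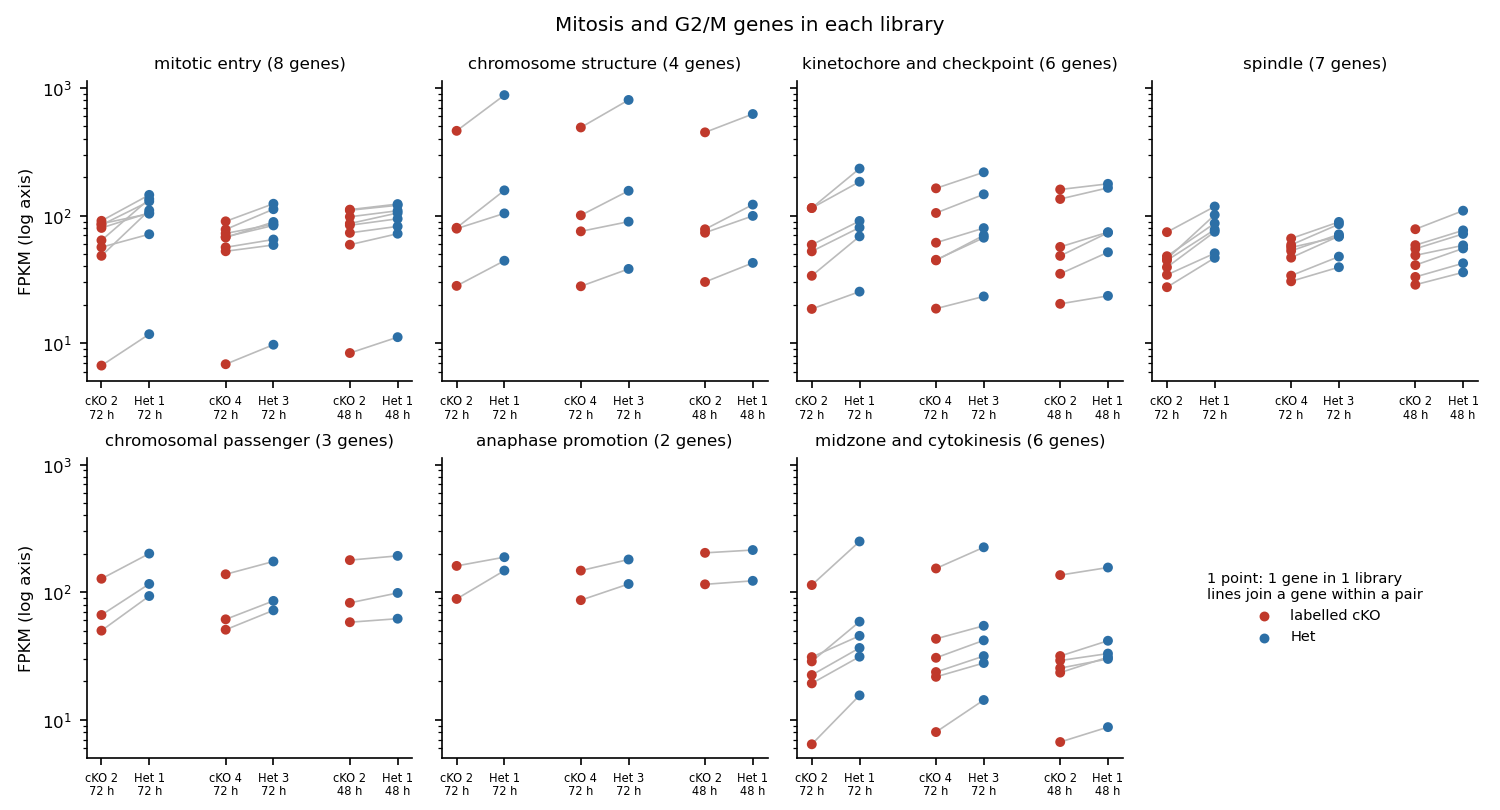
FPKM of each member on a log axis (y) by library (x), in 7 panels by step of mitosis, with 1 point per gene and library, red for the libraries labelled cKO, blue for Het, and grey lines joining a gene within a pair. The line runs upward to Het in each of the 3 pairs for all 36 genes, from Cdc25c and Anln at about the lowest level to Top2a at up to 880.0 FPKM.

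Among the 8 genes of mitotic entry, Ccnb2 showed the largest 72 h difference, and Plk1 and Aurka the smallest. Ccna2, the cyclin of S phase and G2, had 91.1 FPKM in labelled cKO 2 against 146 in Het 1 at 72 h, and 90.3 in labelled cKO 4 against 124 in Het 3. At 48 h, Ccna2 had 112 FPKM in labelled cKO 2 against 123 in Het 1. Both 72 h values labelled cKO lay below both Het values, which gave -0.56 ± 0.13 (SE, limma adjusted p = 0.202) on the log2 scale. Ccnb2, a B-type cyclin, had 64.1 FPKM in labelled cKO 2 against 135 in Het 1 at 72 h, and 77.97 in labelled cKO 4 against 112 in Het 3. At 48 h, Ccnb2 had 84.2 FPKM in labelled cKO 2 against 94.6 in Het 1. Its 72 h log2 fold change was -0.79 ± 0.18 (SE, limma adjusted p = 0.198), and its 48 h values lay close together. Plk1, the polo-like kinase that promotes entry and spindle assembly, had 86.5 FPKM in labelled cKO 2 against 104 in Het 1 at 72 h, and 72.5 in labelled cKO 4 against 85.8 in Het 3. At 48 h, Plk1 had 110.3 FPKM in labelled cKO 2 against 121 in Het 1. At 72 h its higher value labelled cKO lay just above its lower Het value, and its log2 fold change was -0.25 ± 0.12 (SE, limma adjusted p = 0.372). Aurka, the kinase that matures the spindle poles, had 56.6 FPKM in labelled cKO 2 against 71.5 in Het 1 at 72 h, and 52.6 in labelled cKO 4 against 58.9 in Het 3. At 48 h, Aurka had 59.2 FPKM in labelled cKO 2 against 72.2 in Het 1. The 72 h difference, -0.25 ± 0.13 (SE, limma adjusted p = 0.397) on the log2 scale, was the smallest of the 36 members. Cdk1, the kinase at the centre of mitotic entry, stood at -0.51 ± 0.13, and Cdc25c, a phosphatase that activates it, at -0.59 ± 0.16. Ccnb1, the main mitotic cyclin, stood at -0.34 ± 0.12. Cdca3, known as a trigger of mitotic entry, had the most uneven pairs: its log2 ratio was -1.17 in pair 2/1 and -0.20 in pair 4/3. Of the 8 genes, Plk1, Aurka, Ccnb1 and Cdca3 missed an unadjusted p of 0.05.

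The 4 genes of chromosome structure included the highest transcript of the module. Top2a, the topoisomerase that untangles replicated DNA, had 462 FPKM in labelled cKO 2 against 880.0 in Het 1 at 72 h, and 491 in labelled cKO 4 against 807 in Het 3. At 48 h, Top2a had 449.6 FPKM in labelled cKO 2 against 626 in Het 1. At 72 h it had the smallest p of the members, at -0.82 ± 0.13 (SE, limma adjusted p = 0.141) on the log2 scale, a fold of 0.566. Mki67, which coats condensed chromosomes and is widely used to mark dividing cells, had 80.4 FPKM in labelled cKO 2 against 158 in Het 1 at 72 h, and 101 in labelled cKO 4 against 157 in Het 3. At 48 h, Mki67 had 78.3 FPKM in labelled cKO 2 against 122 in Het 1. Its 72 h log2 fold change was -0.80 ± 0.15 (SE, limma adjusted p = 0.158), and its 48 h ratio of -0.64 was the lowest of the 36 members at that time. For both genes every library labelled cKO lay below every Het library, 48 h included. The condensin subunits differed less. Ncapg, of condensin I, stood at -0.54 ± 0.13. Smc2, an ATPase subunit of both condensins, stood at -0.32 ± 0.13 with an unadjusted limma p of 0.0648.

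The 6 genes of the kinetochore and its checkpoint all had an unadjusted p of at most 0.05. Cenpa, the histone variant that marks the centromere, had 115 FPKM in labelled cKO 2 against 234 in Het 1 at 72 h, and 164 in labelled cKO 4 against 219 in Het 3. At 48 h, Cenpa had 160.4 FPKM in labelled cKO 2 against 178 in Het 1. Its 72 h pairs were uneven, with log2 ratios of -1.02 in pair 2/1 and -0.42 in pair 4/3. Bub1, the checkpoint kinase that marks the inner centromere, had 52.5 FPKM in labelled cKO 2 against 80.8 in Het 1 at 72 h, and 44.6 in labelled cKO 4 against 70.1 in Het 3. At 48 h, Bub1 had 56.9 FPKM in labelled cKO 2 against 74.3 in Het 1. Its 2 pairs at 72 h were close, giving -0.63 ± 0.12 (SE, limma adjusted p = 0.166). Bub1b, the checkpoint protein BubR1, had 115 FPKM in labelled cKO 2 against 185 in Het 1 at 72 h, and 105 in labelled cKO 4 against 147 in Het 3. At 48 h, Bub1b had 135 FPKM in labelled cKO 2 against 165 in Het 1. Its 72 h libraries labelled cKO both lay below Het, with a log2 fold change of -0.58 ± 0.13. Cenpf, a protein of the outer kinetochore, had 33.8 FPKM in labelled cKO 2 against 68.8 in Het 1 at 72 h, and 45.1 in labelled cKO 4 against 67.2 in Het 3. At 48 h, Cenpf had 35.04 FPKM in labelled cKO 2 against 51.7 in Het 1. Its 72 h difference was the largest of the group, -0.79 ± 0.17 (SE, limma adjusted p = 0.179). Cenpe, the kinetochore motor that brings chromosomes to the equator, stood at -0.49 ± 0.14, and Ttk, the kinase Mps1 that starts the checkpoint, at -0.37 ± 0.13.

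All 7 spindle genes were lower at an unadjusted p under 0.05. Kif11, the motor that pushes the poles apart, had 39.4 FPKM in labelled cKO 2 against 74.8 in Het 1 at 72 h, and 46.9 in labelled cKO 4 against 69.1 in Het 3. At 48 h, Kif11 had 40.99 FPKM in labelled cKO 2 against 55.4 in Het 1. The 72 h values gave -0.73 ± 0.15 (SE, limma adjusted p = 0.179) on the log2 scale. Nusap1, which bundles microtubules near chromosomes, had 45.9 FPKM in labelled cKO 2 against 101 in Het 1 at 72 h, and 58.99 in labelled cKO 4 against 85.7 in Het 3. At 48 h, Nusap1 had 55.02 FPKM in labelled cKO 2 against 71.9 in Het 1. With -0.83 ± 0.19 (SE, limma adjusted p = 0.201) at 72 h, it was the spindle gene with the largest difference. Tpx2, which nucleates microtubules and activates Aurora A, had 74.3 FPKM in labelled cKO 2 against 118 in Het 1 at 72 h, and 66.2 in labelled cKO 4 against 89.3 in Het 3. At 48 h, Tpx2 had 78.3 FPKM in labelled cKO 2 against 109 in Het 1. The 72 h log2 fold change was -0.54 ± 0.13. For these 3 genes every library labelled cKO lay below every Het library. The other members of the group lay close together: Kif2c, a kinesin that takes microtubule ends apart, at -0.63 ± 0.16, Kif4, a chromosome-borne kinesin, at -0.55 ± 0.16, Dlgap5, which stabilises spindle fibres, at -0.53 ± 0.18, and Hmmr, a protein of spindle poles, at -0.52 ± 0.12.

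The chromosomal passenger complex was represented by its kinase Aurkb and the subunits Birc5 and Cdca8. Aurkb had 127 FPKM in labelled cKO 2 against 201 in Het 1 at 72 h, and 138 in labelled cKO 4 against 174 in Het 3. At 48 h, Aurkb had 178 FPKM in labelled cKO 2 against 193 in Het 1. Both Aurkb values labelled cKO at 72 h lay below both Het values, and the log2 fold change was -0.49 ± 0.14. Birc5, also called survivin, had 49.95 FPKM in labelled cKO 2 against 93.3 in Het 1 at 72 h, and 50.8 in labelled cKO 4 against 72.1 in Het 3. At 48 h, Birc5 had 58.2 FPKM in labelled cKO 2 against 61.97 in Het 1. The 48 h values of Birc5 lay close together, while the 72 h log2 fold change was -0.69 ± 0.16 (SE, limma adjusted p = 0.194). Cdca8, also called borealin, had 66.3 FPKM in labelled cKO 2 against 116 in Het 1 at 72 h, and 61.3 in labelled cKO 4 against 85.4 in Het 3. At 48 h, Cdca8 had 82.5 FPKM in labelled cKO 2 against 98.6 in Het 1. For Cdca8 the 72 h log2 fold change was -0.64 ± 0.15. The 3 genes were further apart in both pairs at 72 h than at 48 h, with median log2 ratios of -0.80 in pair 2/1, -0.47 in pair 4/3 and -0.11 in the 48 h pair.

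Of the genes of anaphase promotion, Cdc20 differed little. Cdc20, the activator of the anaphase promoting complex, had 161 FPKM in labelled cKO 2 against 188 in Het 1 at 72 h, and 148 in labelled cKO 4 against 180.3 in Het 3. At 48 h, Cdc20 had 203 FPKM in labelled cKO 2 against 214 in Het 1. The 72 h log2 difference was -0.26 ± 0.12 (SE, limma adjusted p = 0.362), with an unadjusted p of 0.102. Ube2c, the ubiquitin-conjugating enzyme that serves that complex, had 88.5 FPKM in labelled cKO 2 against 148 in Het 1 at 72 h, and 86.6 in labelled cKO 4 against 116 in Het 3. At 48 h, Ube2c had 115 FPKM in labelled cKO 2 against 123 in Het 1. It stood at -0.57 ± 0.14 (SE, limma adjusted p = 0.212) at 72 h, and both of its 72 h values labelled cKO lay below both Het values.

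The 6 genes of the midzone and cytokinesis held the largest single difference. Anln, the scaffold of the contractile ring, had 6.43 FPKM in labelled cKO 2 against 15.5 in Het 1 at 72 h, and 8.02 in labelled cKO 4 against 14.3 in Het 3. At 48 h, Anln had 6.70 FPKM in labelled cKO 2 against 8.76 in Het 1. The 72 h difference, -0.96 ± 0.17 (SE, limma adjusted p = 0.154) on the log2 scale or a fold of 0.515, was the largest of the 36 members. Racgap1, part of centralspindlin, had 114 FPKM in labelled cKO 2 against 249.7 in Het 1 at 72 h, and 153 in labelled cKO 4 against 225 in Het 3. At 48 h, Racgap1 had 136 FPKM in labelled cKO 2 against 156 in Het 1. The 72 h log2 difference was -0.84 ± 0.19 (SE, limma adjusted p = 0.194). Both genes were lowest in labelled cKO 2 at 72 h and highest in Het 1 at 72 h. Prc1, which bundles midzone microtubules, had 28.7 FPKM in labelled cKO 2 against 58.8 in Het 1 at 72 h, and 43.1 in labelled cKO 4 against 54.5 in Het 3. At 48 h, Prc1 had 29.1 FPKM in labelled cKO 2 against 33.03 in Het 1. Its 72 h ratio was uneven, -1.01 in pair 2/1 and -0.33 in pair 4/3. Kif23, the motor of centralspindlin, stood at -0.54 ± 0.14, Ect2, the exchange factor that activates RhoA at the equator, at -0.49 ± 0.13, and Kif20a, a midzone motor, at -0.51 ± 0.15.

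**Figure D3:**
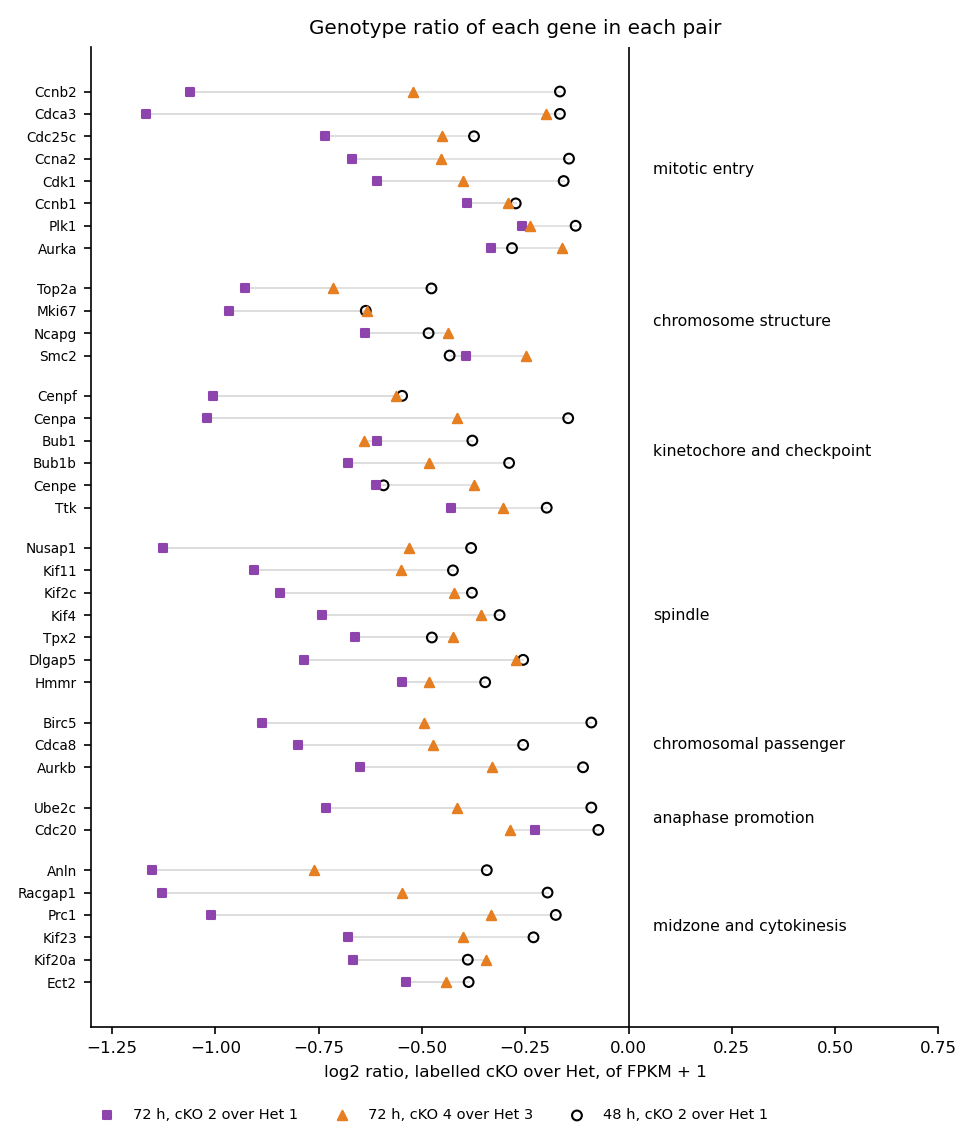
The x axis gives the log2 ratio of FPKM + 1, labelled cKO over Het, for each of the 36 members (y), grouped by step, with squares for pair 2/1 at 72 h, triangles for pair 4/3 at 72 h and open circles for the 48 h pair. All points lie left of 0, between -1.17 (Cdca3, pair 2/1) and -0.07 (Cdc20, 48 h), and most circles lie nearest to 0.

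The 48 h pair was 1 library against 1, so it has ratios and no test. All 36 members were lower in the library labelled cKO, against 50.5% of all genes, with a median log2 ratio of -0.29, and 16 were at a log2 ratio of -0.32 or lower, against 7.03% of all genes. The geometric mean of the members was 59.3 FPKM in labelled cKO 2 and 73.2 FPKM in Het 1. By step, in single libraries that allow no test, the 4 genes of chromosome structure had a median of -0.48, the spindle genes -0.38 and the kinetochore genes -0.33. The midzone and cytokinesis genes had -0.29, mitotic entry -0.17, the passenger genes -0.11 and anaphase promotion -0.08. The 48 h ratios also went with transcript length. The Spearman rho between mean annotated transcript length and the 48 h log2 ratio was -0.62 across the 36 members and -0.26 across 9273 genes averaging 5 FPKM or more, against -0.11 and -0.04 in pair 2/1 and -0.29 and -0.12 in pair 4/3. The 18 longer members had a median of -0.39 at 48 h and the 18 shorter ones -0.21, while at 72 h both groups stood at -0.71 in pair 2/1, and in pair 4/3 the longer ones had -0.45 and the shorter ones -0.41. The part of length in the 48 h ratios was not tested beyond these values, and the longer and shorter groups were formed after the values were seen.

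Taking both times in 1 additive model, 36 members were lower, with a median log2 fold change of -0.50 ± 0.13 (median SE). Labelled cKO 2 and Het 1 entered it at both times with no term for replicate. Pair 2/1 at 72 h and the 48 h pair may thus not be independent, which the p-values do not take into account. At an unadjusted p under 0.05, 33 members were lower, against 5.28% of all genes, and the members that missed it were Cdc20, Plk1 and Cdca3. None passed an adjusted p under 0.05 (smallest 0.343), where 0.0% of all genes passed. All 36 were lower in all 3 pairs, against 14.7% of all genes. Mki67 stood at -0.75 ± 0.11, with an unadjusted limma p of 0.00101, the smallest of the members. Without labelled cKO 4 or without Het 3, which leaves out pair 4/3 as a comparison, 15 members were at an unadjusted p under 0.05, against 2.26% of all genes without labelled cKO 4 and 2.23% without Het 3.

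With time, most members moved in opposite directions in the libraries of the first table. In the first table, 28 of the 36 members were lower at 72 h than at 48 h in labelled cKO 2 and higher at 72 h in Het 1, against 18.2% of all genes. The median log2 change, 72 h over 48 h, was -0.15 in labelled cKO 2 and 0.25 in Het 1. In labelled cKO 2, 31 members were lower at 72 h, against 45.2% of all genes, and those higher were Cenpe, Smc2, Hmmr, Top2a and Mki67. In Het 1, 33 members were higher at 72 h, against 46.6% of all genes, and those lower were Plk1, Cdc20 and Aurka. Prc1 stood at -0.02 in labelled cKO 2 and 0.81 in Het 1, Anln at -0.05 in labelled cKO 2 and 0.76 in Het 1, and Birc5 at -0.22 in labelled cKO 2 and 0.58 in Het 1. Cenpe was higher at 72 h in each by about as much, 0.28 in labelled cKO 2 and 0.30 in Het 1. The time term over these 4 libraries, fitted with the genotype, had a median of 0.02 for the members, and none had an unadjusted p under 0.05, against 8.16% of all genes; 0.0163% of all genes passed the adjusted threshold and no member did. The term is a mean over opposite directions. Without labelled cKO 2 at 72 h, which also drops the genotype term, 6 of the 36 members passed the adjusted threshold, a share close to the 18.3% of all genes that did, and the median was 0.37. Without Het 1 at 72 h no member passed, against 1.14% of all genes, and the median was -0.31.

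**Figure D4:**
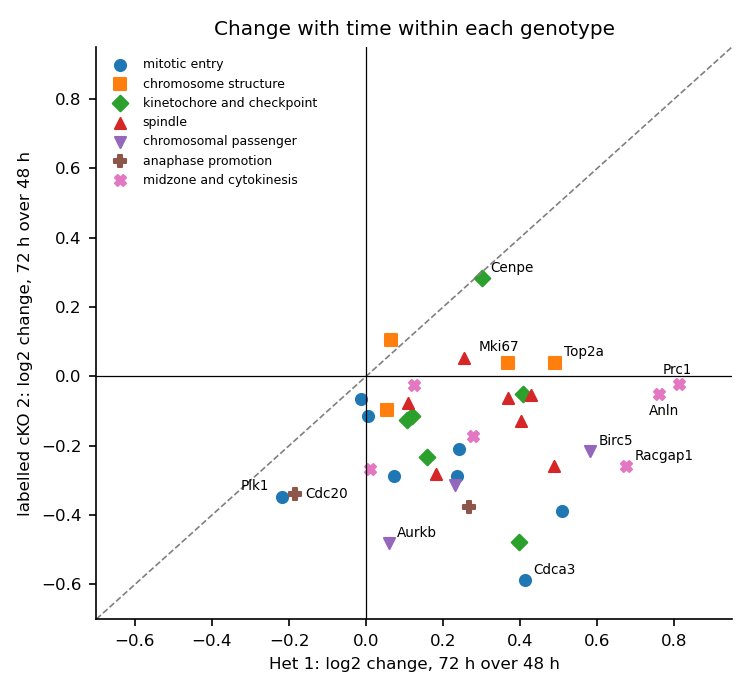
Log2 change of FPKM + 1, 72 h over 48 h, in labelled cKO 2 (y) and Het 1 (x), with 1 point per member and a symbol per step; the dashed line marks equal change. Most points, 28 of 36, lie in the lower right quadrant, lower with time in labelled cKO 2 and higher in Het 1, and Cenpe lies next to the line.

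The interaction term over all 6 libraries, again without a term for replicate, tested whether the genotype difference at 72 h was unlike that at 48 h. It was below 0 for 33 of 36 members, against 40.0% of all genes, with a median of -0.27 ± 0.25 (median SE) on the log2 scale. No member had an unadjusted p under 0.05, against 2.28% of all genes that did so downward, and none passed the adjusted threshold, where 0.0% of all genes passed. The smallest unadjusted limma p was 0.0937, for Birc5, and the smallest adjusted p 0.856. Each 72 h pair was more negative than the 48 h pair for 29 members, against 26.8% of all genes, a difference that the test did not separate from the spread between libraries.

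The wider machinery was described from lists chosen with earlier results of these data known. Of 72 other mitotic genes, 68 were lower at 72 h, against 39.0% of all genes. At an unadjusted p under 0.05, 40 were lower and 1 higher, where 6.99% of all genes were lower and 10.3% higher, and the median log2 fold change was -0.45. Depdc1b, known for a role in the detachment of cells at mitotic entry, had 10.96 FPKM in labelled cKO 2 against 25.8 in Het 1 at 72 h, and 12.8 in labelled cKO 4 against 25.96 in Het 3, or -1.06 ± 0.14 (SE, limma adjusted p = 0.121) on the log2 scale. Hjurp, the chaperone that places Cenpa at centromeres, had 151 FPKM in labelled cKO 2 against 287 in Het 1 at 72 h, and 123 in labelled cKO 4 against 209.8 in Het 3, with -0.84 ± 0.13 (SE, limma adjusted p = 0.129). Psrc1, a microtubule-binding spindle protein, went the other way with 117 FPKM in labelled cKO 2 against 29.1 in Het 1 at 72 h, and 113 in labelled cKO 4 against 26.99 in Het 3, or 1.995 ± 0.12 (SE, limma adjusted p = 0.106) on the log2 scale. Of 15 cohesin and separase genes, 13 were lower and 4 at an unadjusted p under 0.05, against the same 6.99%, among them Espl1, which encodes separase, at -0.62 ± 0.14, Esco2, a cohesin acetyltransferase, at -0.67 ± 0.14, and Sgo1, the protector of centromeric cohesin, at -0.69 ± 0.22. The 17 genes of the anaphase promoting complex and its regulators had a median of -0.09. Of them, 1 was lower at that level, against 6.99% of all genes: Fbxo5, an inhibitor of the complex, at -0.45 ± 0.13. Fzr1, the second activator, stood at -0.40 ± 0.16 and the scaffold Anapc1 at 0.27 ± 0.12. The 10 tubulin genes had a median of -0.21. At an unadjusted p under 0.05, 1 was higher, against 10.3% of all genes, and none lower, against 6.99%. That was Tuba4a, at 0.38 ± 0.12, while Tubb2a stood at 0.39 ± 0.15 and Tuba1c at -0.39 ± 0.16. No gene of these lists passed an adjusted p under 0.05.

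The regulators of these genes differed in direction among themselves. Of 18 transcription factors of the G2/M program, 2 were lower and 1 higher at an unadjusted p under 0.05, where 6.99% of all genes were lower and 10.3% higher, and the median was -0.01. Foxm1, the activator of late cell cycle genes, had 60.6 FPKM in labelled cKO 2 against 129.6 in Het 1 at 72 h, and 83.8 in labelled cKO 4 against 125 in Het 3. At 48 h, Foxm1 had 73.6 FPKM in labelled cKO 2 against 88.02 in Het 1. The 72 h log2 difference was -0.83 ± 0.18 (SE, limma adjusted p = 0.185), of the size of that of Top2a. Mybl2, which encodes B-Myb and was named after its value was seen, stood at -0.003 ± 0.13. E2f8, a repressive E2F factor, stood at -0.50 ± 0.12, and Rbl2, the p130 pocket protein of DREAM, at 0.54 ± 0.14. Of 11 measured genes that brake mitotic entry, 6 were higher and 2 lower at an unadjusted p under 0.05, where 10.3% of all genes were higher and 6.99% lower. Cdkn1a, an inhibitor of cyclin-dependent kinases and a p53 target, had 271 FPKM in labelled cKO 2 against 134 in Het 1 at 72 h, and 201 in labelled cKO 4 against 74.9 in Het 3. At 48 h, Cdkn1a had 137 FPKM in labelled cKO 2 against 98.2 in Het 1. Every library labelled cKO lay above every Het library, with 1.21 ± 0.16 (SE, limma adjusted p = 0.121) at 72 h. Ccng1, an atypical cyclin and p53 target, had 152 FPKM in labelled cKO 2 against 59.7 in Het 1 at 72 h, and 138 in labelled cKO 4 against 61.7 in Het 3, with 1.24 ± 0.13 (SE, limma adjusted p = 0.106). The kinase Plk2 had 12.96 FPKM in labelled cKO 2 against 3.16 in Het 1 at 72 h, and 8.57 in labelled cKO 4 against 2.58 in Het 3, with 1.58 ± 0.18 (SE, limma adjusted p = 0.112). The 4 brake genes that went the other way at 72 h are named after their values were seen. Gadd45g, a stress-response gene, stood at -1.36 ± 0.18 and Ccng2 at -0.801 ± 0.175. Wee1 at -0.30 ± 0.13 and Pkmyt1 at -0.29 ± 0.17 were lower in both 72 h pairs but missed an unadjusted p of 0.05.

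The genes of the preceding phase were close to level between genotypes at 72 h. Of 41 genes of G1/S and replication, 18 were lower, against 39.0% of all genes, and 23 higher. Their median of 0.04 turned to -0.003 with quantile normalization and -0.026 with median centring. At an unadjusted p under 0.05 none was lower, against 6.99% of all genes, and 1 was higher, against 10.3%. That was Cdc25a, the phosphatase of S phase entry, at 0.46 ± 0.15. Rrm2, a subunit of ribonucleotide reductase, stood at -0.31 ± 0.12. The ratio of the geometric mean of the mitosis and G2/M genes to that of the G1/S genes was 0.863 in labelled cKO 2 against 1.461 in Het 1 at 72 h, 1.106 in labelled cKO 4 against 1.571 in Het 3, and 0.85 in labelled cKO 2 against 0.983 in Het 1 at 48 h. It was lower in the library labelled cKO in each pair, and in labelled cKO 2 it was 0.863 at 72 h and 0.85 at 48 h. In the 48 h pair, 30 of the 41 G1/S genes were lower in labelled cKO 2, against 50.5% of all genes. With time, 34 were lower at 72 h in labelled cKO 2, against 45.2% of all genes. Only 3 were higher at 72 h in Het 1, against 46.6%, so the G1/S part of the ratio changed with time too.

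**Figure D5:**
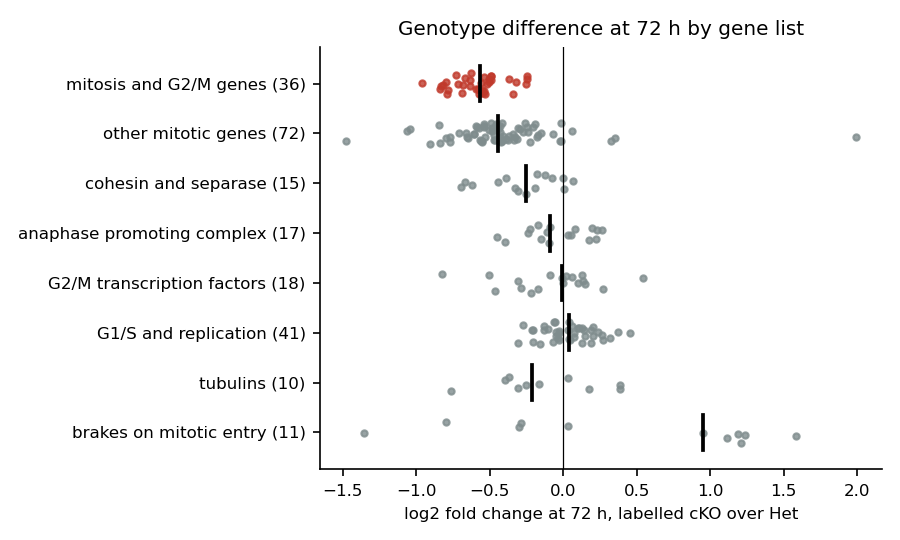
Log2 fold change at 72 h, labelled cKO over Het (x), for each measured gene of 8 lists (y), with red points for the 36 members, grey points for the other lists and black bars for the medians. The members lie between -0.96 and -0.25 around a median of -0.57, the G1/S genes around 0.04, and the 11 brake genes spread between -1.36 and 1.58.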

How the data were processed

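The authors deposited FPKM in 2 tables. Per the submitters' processing notes, TopHat2 2.0.12, Bowtie2 2.2.3, HTSeq 0.6.1 and build mm9 were used. The annotation and the use of strand were not given in the sources used here, and reads of genes that overlap, antisense ones included, may be mixed. Per the labels' protocols, the SMART-Seq v4 low-input kit was used. FPKM summed to 625157 to 703317 per library. The 278 shared rows without an Ensembl ID were left out.

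Values were analysed as log2(FPKM + 1), which understates changes of low genes. Genes averaging 1 FPKM or more in a fit were tested with limma 3.58.1 in R 4.3.3 (variance trend, Benjamini-Hochberg over all genes), checked on simulated data. The deposited table was a term in fits over both tables. The time fit used the first table, where genotype equals replicate number. Depth was estimated from FPKM steps with mean annotated transcript lengths: 85.2% to 86.2% of low values lay within 0.02 of whole fragments, against 4.03% to 4.57% with lengths scrambled. No count test was run.

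The members and lists were chosen with earlier results of these data known. Values in every library are given for the 2 highest members and the 2 with the smallest p at 72 h in each step. They are also given for the largest and smallest fold changes. From other lists at most 3 genes with the smallest p are named. Mybl2, Gadd45g, Ccng2, Wee1 and Pkmyt1 are named beside them and were chosen after their values were seen. A gene that this rule would name is not reported here. Steps, lists and alternatives are those in the closing section. Tables and figures used Python 3.11.15, pandas 2.3.3, numpy 2.4.6, scipy 1.17.1 and matplotlib 3.10.9.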

Additional observations from a re-analysis of the deposited data

Results flagged for a closer look

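The change with time ran in opposite directions in the first table for the members' median and for 6 of the 7 steps. The median log2 change, 72 h over 48 h, of the 36 members was -0.15 in labelled cKO 2 and 0.25 in Het 1. By step, it was -0.29 in labelled cKO 2 and 0.15 in Het 1 for mitotic entry, -0.12 in labelled cKO 2 and 0.23 in Het 1 for kinetochore and checkpoint, -0.076 in labelled cKO 2 and 0.37 in Het 1 for the spindle. For the chromosomal passenger genes it was -0.31 in labelled cKO 2 and 0.23 in Het 1, for anaphase promotion -0.36 in labelled cKO 2 and 0.04 in Het 1, and for the midzone and cytokinesis -0.11 in labelled cKO 2 and 0.48 in Het 1. In the step of chromosome structure it went the same way, 0.039 in labelled cKO 2 and 0.22 in Het 1. With 1 library per genotype and time in that table, the difference in direction was not tested. The interaction term over 6 libraries also took in the second table, which had no 48 h library. It compared the genotype difference at 72 h, over both pairs, with that at 48 h. For pair 2/1 alone, that comparison equals the change with time in labelled cKO 2 less that in Het 1. The term thus took in the changes with time of the first table without testing them alone. In that term no member had an unadjusted limma p under 0.05.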

How the results depend on the processing

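The number of members at an adjusted p under 0.05 was 0 for genotype over both times in every alternative run. At 72 h it was 0 in every run that kept all libraries. Runs at 72 h that left a library out had 1 library of a genotype, so their adjusted counts are not given here. Among all genes, 8 of 28080 passed at 72 h with no filter. Over both times, 7 of 12297 passed without labelled cKO 4 and 7 of 12385 without Het 3. All 36 members were lower for genotype at 72 h, over both times and at 48 h in every alternative run. Alternatives were pseudocounts of 0.1 and 5, no filter or a stricter one, TPM, quantile normalization, median centring, the variance trend, the table term and leaving out each library. Leaving out a library gave medians of -0.73 to -0.44 at 72 h with 0 to 16 members lower at an unadjusted p under 0.05 (1.41% to 8.86% of all genes), and of -0.57 to -0.35 over both times with 15 to 30 (2.23% to 6.98% of all genes); fewer samples and, at 72 h, no table term enter these fits. For time, leaving out a library gave medians of -0.31 to 0.37, 2 to 36 members lower, 0 to 11 lower at an unadjusted p under 0.05 and 0 to 6 at an adjusted p. The 11 came without Het 1 at 72 h, where 4.23% of all genes were lower at that level, and the 6 without labelled cKO 2 at 72 h, where 18.3% of all genes passed. Without the replicate block the median stayed 0.02 and no member passed. Reversed medians at 72 h were those of G1/S genes (-0.003 with quantile normalization, -0.026 with median centring, -0.12 to 0.23 leaving out a library, below 0 without labelled cKO 2 or Het 3), G2/M factors (-0.11 to 0.026, above 0 without Het 1 or labelled cKO 4), the anaphase promoting complex (-0.14 to 0.013, above 0 without Het 1) and tubulins (-0.53 to 0.24, above 0 without Het 1 or labelled cKO 4); the cause was not tested. No scaling moved the median of all genes by over 0.1 (largest -0.08, quantile normalization at 72 h), but the share of calls at an unadjusted p under 0.05 that were lower was 40.4% as deposited, 54.0% with quantile normalization and 53.2% with median centring. In the 250 bases before the start alone, TTTGAA was in 12 members (18.3% of all genes), and with CCAAT in 11 (7.3%); in a window of 50 bases on each side, chosen after seeing the data, TTTAAA was in 5 (4.3%), CCAAT in 17 (15.6%), and TTTGAA with CCAAT in 15 (1.1%). The limits are 1 or 2 residual degrees of freedom, 1 library per genotype at 48 h, 2 tables with no stated common normalisation, labels that Noc4l goes against, and depth known only by estimate.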
